A study of Homo sapiens with 6 samples.

Results

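The short arm of human chromosome 3 (3p) carries several genes whose loss is recurrent in tumours, and 9 of them were followed here: VHL, BAP1, PBRM1, SETD2, RASSF1, FHIT, RHOA, RBM5 and RBM6. They were taken by gene symbol from the deposited expression table, each matching 1 row, so they are 9 of 60623 listed genes and 9 of 1323 listed on 3p. They were picked with the lower values of 3p genes in the knockdown already known, so their differences between groups are given as a description, without a test. RNA-seq had been made from 6 samples labelled as Huh7 cells, a human hepatocellular carcinoma line. Of these, 3 control samples had the genotype label WT and titles beginning with NC, and 3 had SRSF10, an SR-like regulator of splicing, knocked down by what the series title calls shSRSF10. The treatment label was NA in all 6. The labels do not say whether the controls received a control hairpin, whether the knockdown cells were a pool or 1 clone, or whether replicates came from separate cultures, so the spread between samples may be technical.

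As background, tumour suppressors on 3p act in unrelated pathways but lie close enough together that deletion of the arm removes 1 copy of many of them at once. VHL is the substrate receptor of a ubiquitin ligase that marks hypoxia-inducible factors for destruction. BAP1 removes ubiquitin from histone H2A, PBRM1 is a bromodomain subunit of the PBAF chromatin remodeller, and SETD2 trimethylates lysine 36 of histone H3. RASSF1 is a scaffold that feeds into the Hippo kinases, FHIT is a hydrolase of diadenosine polyphosphates that spans a common fragile site, RHOA is a small GTPase of the actin cytoskeleton, and RBM5 and RBM6 are neighbouring, related RNA-binding splicing factors.

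The members lie on 3p in GENCODE release 29 on GRCh38. VHL (ENSG00000134086) is at chr3:10141008-10152220 on the plus strand, and all the others except FHIT form a cluster farther in: SETD2 (ENSG00000181555) at chr3:47016429-47163967, RHOA (ENSG00000067560) at chr3:49359145-49412998, RBM6 (ENSG00000004534) at chr3:49940007-50100045, RBM5 (ENSG00000003756) at chr3:50088908-50119021, RASSF1 (ENSG00000068028) at chr3:50329782-50340980, BAP1 (ENSG00000163930) at chr3:52401013-52410350 and PBRM1 (ENSG00000163939) at chr3:52545352-52685917. FHIT (ENSG00000189283) is at chr3:59749310-61251459 and spans 1502 kb. RBM5 and RBM6 are on the plus strand and the other cluster genes and FHIT on the minus strand. RBM5 and RBM6 share 456 exonic bases on the same strand, which is 4.4% of those of RBM5 and 6.2% of those of RBM6, so some of their fragments can be split between them. Antisense genes cover 17.9% of the exonic bases of RASSF1 (RASSF1-AS1) and up to 9.7% of those of RBM5 (RBM5-AS1). Other protein-coding genes cover 8.3% of those of RHOA (TCTA) and 1.5% of those of PBRM1 (SMIM4), both on the opposite strand. The strand setting of the counting is not given in the sources used here, so such fragments cannot be told apart. Exons of VHL, BAP1, SETD2 and FHIT overlapped those of no other gene in that annotation.

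Promoter windows of 7 of the 9 members were found in the RefSeq table for GRCh38.p14, and VHL and BAP1 were not matched. The 250 bases before the start are shown for 4 members that differ in behaviour: RHOA, with the highest level, RBM5, with the largest relative difference, RASSF1, whose groups overlapped, and FHIT, which was barely detected. They are at chr3:49411977-49412226 (RHOA, minus), chr3:50088669-50088918 (RBM5, plus), chr3:50337451-50337700 (RASSF1, minus) and chr3:61251453-61251702 (FHIT, minus). Capitals mark any match, on either strand, to the GC box GGGCGG, the CCAAT box, the TATA box TATAAA or the ETS site CCGGAAG.
RHOA: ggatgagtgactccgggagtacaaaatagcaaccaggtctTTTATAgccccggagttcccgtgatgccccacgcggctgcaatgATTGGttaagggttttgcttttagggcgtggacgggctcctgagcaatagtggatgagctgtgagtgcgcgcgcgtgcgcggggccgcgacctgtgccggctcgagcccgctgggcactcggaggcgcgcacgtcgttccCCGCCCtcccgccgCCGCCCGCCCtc
RBM5: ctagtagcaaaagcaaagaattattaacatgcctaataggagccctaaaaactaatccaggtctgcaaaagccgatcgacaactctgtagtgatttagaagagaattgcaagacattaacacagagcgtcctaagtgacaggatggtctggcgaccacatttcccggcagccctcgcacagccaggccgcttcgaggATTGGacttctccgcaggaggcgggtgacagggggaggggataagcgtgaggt
RASSF1: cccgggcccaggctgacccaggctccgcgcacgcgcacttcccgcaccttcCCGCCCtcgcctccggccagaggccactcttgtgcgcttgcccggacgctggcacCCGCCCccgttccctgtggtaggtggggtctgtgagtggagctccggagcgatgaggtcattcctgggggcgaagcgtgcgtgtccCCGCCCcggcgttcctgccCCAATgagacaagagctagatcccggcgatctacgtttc
FHIT: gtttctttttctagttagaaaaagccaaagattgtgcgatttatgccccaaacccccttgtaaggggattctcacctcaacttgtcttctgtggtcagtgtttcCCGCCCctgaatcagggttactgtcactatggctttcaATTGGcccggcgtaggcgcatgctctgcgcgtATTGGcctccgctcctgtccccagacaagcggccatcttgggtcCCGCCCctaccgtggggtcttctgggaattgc

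The RHOA window held 3 GC boxes, overlapping ones counted separately, with 1 CCAAT box and 1 TATA box, and the RASSF1 window 3 GC boxes and 1 CCAAT box. The RBM5 window held 1 CCAAT box and 0 GC boxes, and the FHIT window shown 2 of each. A second FHIT window in the table, at chr3:60080910-60081159, held 0 CpG dinucleotides, 0 GC boxes and 1 CCAAT box. Over all 35116 windows of the same length, 42.6% held a GC box, 32.0% a CCAAT box, 10.7% a TATA box and 8.52% an ETS site. CpG dinucleotides numbered 28 in the RHOA window, 25 in that of RASSF1 and 11 in those of RBM5 and FHIT as shown, against a median of 11 over all windows. The RASSF1 and RHOA windows lie inside the genes as GENCODE draws them, so the outermost starts of both are not shown. These matches describe letters in a window and were not tied to the measured levels.

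SRSF10 itself (ENSG00000188529, chromosome 1) was lower in each knockdown library, as the labels state. The 3 controls held 18.6, 19.5 and 19.8 FPKM, the deposited unit, which is fragments scaled to gene length and library depth, and the knockdown libraries 10.6, 10.8 and 10.6. Their mean was 44.8% lower (exact two-sided permutation p = 0.1, the smallest that 3 against 3 can give, and limma adjusted p = 0.000166). Depth estimated from the steps between low FPKM values was 12720000 to 14350000 fragments per library. Of 16 hepatocyte markers 10 were under 1 FPKM too often to be tested, and TTR, APOA2 and GPC3 were listed at 0 in all 6 libraries. ALB averaged 0.15 FPKM in control and 0.624 FPKM in knockdown libraries, and AFP reached at most 0.958 FPKM. HNF4A was at 4.23 to 6.22 FPKM and KRT18 at 172.5 to 197.6 FPKM. Most of the listed hepatocyte markers were thus under 1 FPKM in cells labelled Huh7, and the identity of the line was not tested. Of the secreted fibrinogen chains, FGB was at 4.83 to 5.53 FPKM and FGA at 1.57 to 2.04 FPKM. The summed hepatocyte markers were at 633.5 to 673.5 FPKM in control and 614.2 to 665.6 FPKM in knockdown libraries, of which 96.6% to 97.0% was the keratins KRT8 and KRT18, and 0 of the 6 tested passed limma. Without these keratins the sum was 19.5 to 21.7 FPKM in control and 20.1 to 20.9 FPKM in knockdown libraries. Of 13 markers of other cell types, summed at 96.8 to 102.9 FPKM in control and 87.6 to 98.2 FPKM in knockdown libraries, 3 were tested, and KRT19 alone made up 89.8% to 92.2% of that sum. KRT7 fell (3.16 to 1.14 FPKM, limma adjusted p = 0.00405) and PECAM1 rose (5.28 to 6.85 FPKM, limma adjusted p = 0.0373, kept in 2 of 6 fits that left out a library). PTPRC, COL1A1, COL1A2 and PDGFRB reached at most 0.172 FPKM and were listed at 0 in at least 1 library each. The part of these markers in the results below was not tested.

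Of the 9 members, 7 were lower in every knockdown library than in any control library, by 19% to 29.5% of the control mean. Over all 12191 tested genes 22.0% were lower in the same way, and since the members were chosen from this contrast nothing is read from the difference. The groups of RASSF1 overlapped, and FHIT was too low to compare. FHIT alone did not pass the filter of at least 1 FPKM in at least 3 libraries, and the other 8 passed it in all 6 libraries. These are bulk samples, so fewer cells with a transcript and less of it per cell cannot be told apart.

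**Figure D1:**
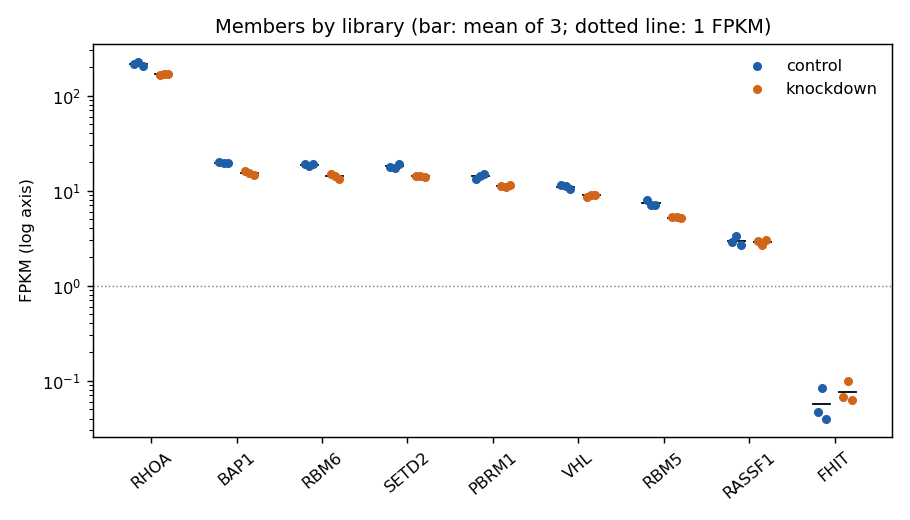
FPKM of the 9 members (log axis) in each of the 3 control (blue) and 3 knockdown (orange) libraries, with the mean of each group as a bar and 1 FPKM as a dotted line. The orange points lie under the blue ones for 7 genes, overlap them for RASSF1 near 3 FPKM, and lie under 0.1 FPKM in both groups for FHIT.

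RHOA, the cytoskeletal GTPase, was by far the most abundant member. The controls held 213, 227 and 204 FPKM and the knockdown libraries 163, 171 and 169 FPKM. The lowest control lay 33.1 FPKM above the highest knockdown library, and the means were 215 ± 12 and 168 ± 4.1 FPKM (SD, n = 3 per group). The log2 difference, knockdown minus control on the log2(FPKM + 1) scale used throughout, was -0.35 with an SE of 0.046. An estimated 5569 to 7904 fragments per library lay behind these values.

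The 3 chromatin regulators moved by nearly the same amount. BAP1 had control values of 20.1, 19.4 and 19.6 FPKM and knockdown values of 16, 15.4 and 14.5 FPKM, a log2 difference of -0.35 (SE 0.045). SETD2 was at 17.9, 17.4 and 19.1 FPKM against 14.4, 14.2 and 14.1 FPKM, a log2 difference of -0.33 (SE 0.043). PBRM1 was at 13.4, 14.4 and 15.2 FPKM against 11.3, 10.9 and 11.5 FPKM, a log2 difference of -0.32 (SE 0.052). In relative terms the means of BAP1, PBRM1 and SETD2 were 22.5%, 21.4% and 21.4% lower. The knockdown libraries of SETD2 were the tightest of the 9 members, with a coefficient of variation of 1.2%, and the controls of PBRM1 varied by 6.26%.

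VHL, the ligase subunit far from the cluster, had the smallest difference of the 7. Its controls held 11.3, 11.3 and 10.3 FPKM, against 8.54, 9.07 and 9.09 FPKM after knockdown. The gap between the groups was 1.22 FPKM, the narrowest of the 7 in FPKM, and the log2 difference was -0.28 (SE 0.051).

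RBM5 and RBM6, the adjoining splicing factors, had the largest relative differences. RBM5 had control values of 7.97, 7.07 and 7.15 FPKM and knockdown values of 5.30, 5.23 and 5.10 FPKM, 29.5% lower in the mean (log2 difference -0.43, SE 0.055). RBM6 was at 18.9, 18.3 and 19.1 FPKM against 15.1, 14.2 and 13.4 FPKM, 24.0% lower (log2 difference -0.37, SE 0.05). The 95% intervals of the log2 differences, -0.56 to -0.30 for RBM5 and -0.49 to -0.26 for RBM6, overlapped widely with each other. That of VHL (-0.40 to -0.15) overlapped with both, and with that of RBM5 only from -0.40 to -0.30. The differences among the 7 members were not tested.

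RASSF1 was the member with the smallest difference. Its controls held 2.91, 3.35 and 2.71 FPKM and its knockdown libraries 2.93, 2.69 and 3.04 FPKM, so the groups overlapped fully. The means were 2.99 ± 0.33 and 2.89 ± 0.18 FPKM (SD, n = 3 per group), and the log2 difference was -0.04 with a 95% interval of -0.22 to 0.15. Only about 135 to 157 fragments per library lay behind it, and the interval still reaches the -0.15 at the upper end of that of VHL. Its difference from the other members was not tested. The table gives 1 value for the gene, so its alternative transcripts were not separated.

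FHIT was close to undetected in these cells. Its controls were listed with 0.0465, 0.0842 and 0.0395 FPKM and its knockdown libraries with 0.0669, 0.0983 and 0.0629 FPKM, which corresponds to about 3 to 7 fragments per library. The groups overlapped, and no fold is given at such counts.

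The order of the levels was the same in both groups: RHOA, BAP1, RBM6, SETD2, PBRM1, VHL, RBM5, RASSF1 and FHIT by mean FPKM, which is per length. In the controls SETD2 (17.4 to 19.1 FPKM) and RBM6 (18.3 to 19.1 FPKM) overlapped, and the other neighbours in the order did not. In the knockdown RBM6 (13.4 to 15.1 FPKM) overlapped with both BAP1 (14.5 to 16 FPKM) and SETD2 (14.1 to 14.4 FPKM), which did not overlap with each other.

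The size of the differences was set beside the ratio that loss of 1 copy of a gene would give if transcript level followed copy number. That ratio is 0.5 from 2 copies, 0.667 from 3, 0.75 from 4, 0.8 from 5 and 0.833 from 6. The ratios of mean FPKM were 0.705 for RBM5, 0.76 for RBM6, 0.776 for BAP1, 0.781 for RHOA, 0.786 for PBRM1, 0.786 for SETD2, 0.81 for VHL and 0.966 for RASSF1. Because a pseudocount of 1 pulls the ratio of a low gene toward 1, the intervals come from the fit with a pseudocount of 0.1. The 95% interval was 0.642 to 0.785 for RBM5, 0.696 to 0.83 for RBM6, 0.717 to 0.839 for BAP1 and 0.725 to 0.843 for RHOA. It was 0.719 to 0.863 for PBRM1, 0.731 to 0.85 for SETD2, 0.741 to 0.89 for VHL and 0.823 to 1.14 for RASSF1.

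The loss of 1 of 2 copies lay outside the interval of all 8 measured members, and the loss of 1 of 3 lay inside that of RBM5 alone. The loss of 1 of 4 lay inside the intervals of 7 members, and that of 1 of 5 and of 1 of 6 inside those of 6 each. The 6 for 1 of 6 include RASSF1, whose interval also held no change. With a pseudocount of 1 the counts were 6 for 1 of 4, 7 for 1 of 5, 6 for 1 of 6 and 0 for 1 of 3. The intervals of VHL, BAP1, PBRM1, SETD2 and RHOA each held the ratios for 4, 5 and 6 starting copies at once. These intervals describe values that the members were chosen on and are no test of them. No value here measures DNA, so the number of copies in either group of cells is unknown, and whether copy loss has a part in the lower levels was not tested.

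**Figure D2:**
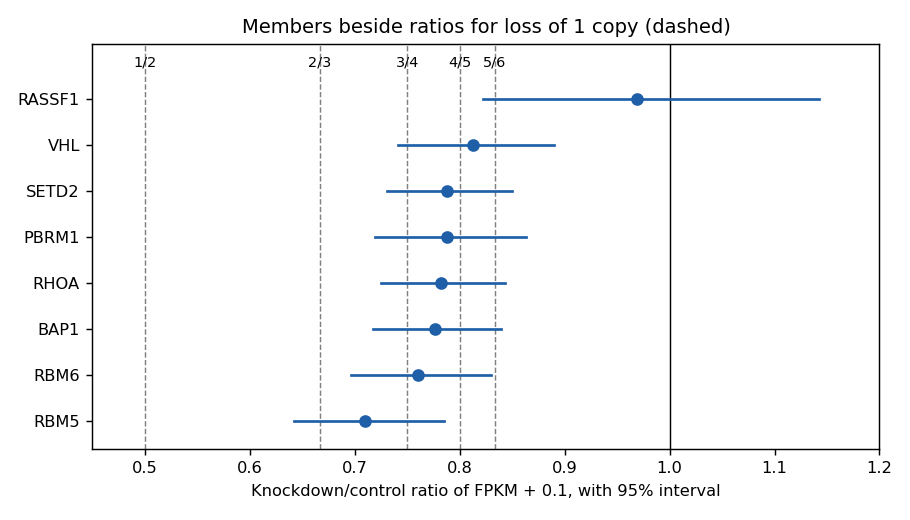
Knockdown over control ratio of each measured member with its 95% interval (pseudocount 0.1), beside the ratios that loss of 1 copy would give from 2 to 6 copies (dashed lines) and no change (solid line). The 7 lower members lie between 0.71 and 0.812, and RASSF1 lies at 0.969 with the widest interval.

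The members' neighbours on the arm were lower as well. Of the 318 other tested genes on 3p, 178 fell and 4 rose (limma, adjusted p under 0.05), or 56.0% and 1.26%, where 12.5% of all tested genes fell and 12.6% rose. The median log2 difference of these 318 genes was -0.26 against -0.01 over all tested genes, and the median ratio of mean FPKM was 0.803, with quartiles of 0.732 and 0.881. Relative to the control mean, the median over 3p genes was -0.27, -0.26 and -0.26 in the 3 knockdown libraries and between -0.01 and 0.01 in the controls. The lower level was therefore of like size in each knockdown library. The share of 3p genes that were lower had been seen before the members were picked, so it is no independent support for them.

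Each member was then compared with the median of the 20 tested genes nearest to it on the arm, other members left out. VHL, PBRM1 and BAP1 differed from theirs by 0.01, 0.00 and -0.02 on the log2 scale, values whose sign turned under some of the alternatives. SETD2 differed by -0.08, a value that turned to 0.015 with a filter of 5 FPKM and was -0.029 with a pseudocount of 0.1 or without control replicate 3. RHOA (-0.11), RBM6 (-0.16) and RBM5 (-0.22) were lower than theirs, and the value of RBM6 was -0.098 with the filter of 5 FPKM and -0.101 without knockdown replicate 3. RASSF1 was 0.16 above its neighbours, whose median was -0.19. The neighbours themselves ranged widely, from -0.46 to 0.18 around RASSF1 and from -1.08 to 0.13 around BAP1, so each member lay within the range of the genes beside it. In the order of all 326 tested 3p genes from the lowest log2 difference, RBM5 was at place 48, VHL at place 159 and RASSF1 at place 285.

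**Figure D3:**
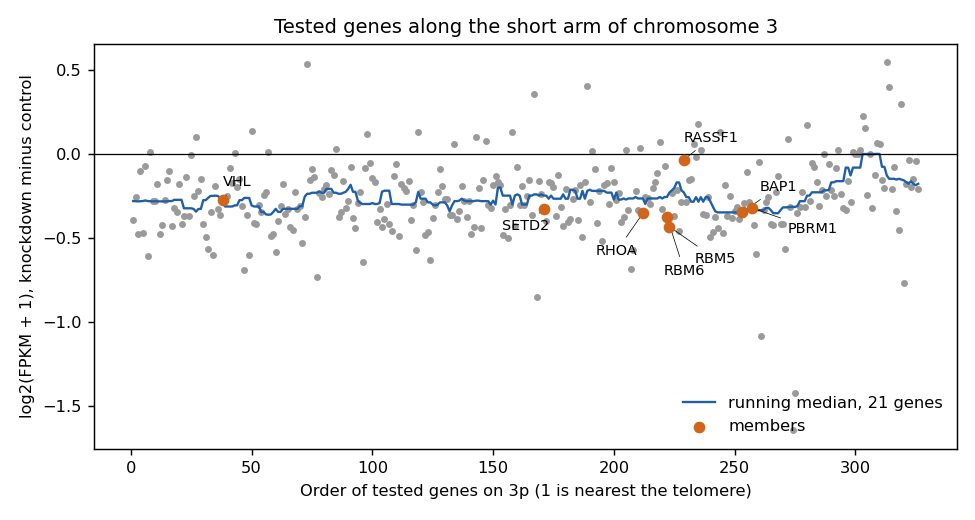
Log2 difference, knockdown minus control, of the 326 tested genes on 3p in their order from the telomere (left), with a running median over 21 genes (line) and the members in orange. The line stays near -0.3 over most of the arm and comes closer to 0 near its right end, and RASSF1 is the only member close to 0.

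Of the 16 tested genes that directly flank a member, 10 fell and 0 rose (limma, adjusted p under 0.05). Among all 318 tested 3p genes other than the members, these 16 included, 56.0% fell and 1.26% rose. Of the 10 calls 6 were kept without knockdown replicate 1. NBEAL2 and TCTA, among the 10, kept their calls in 1 and 2 of the 6 fits that left out a library. The 10 include both flanks of VHL, BRK1, a subunit of the actin-regulating WAVE complex (58.5 ± 5.3 to 45.2 ± 3.3 FPKM, a call lost without knockdown replicate 1 or 3), and the signalling kinase gene IRAK2 (13.7 ± 0.57 to 11.2 ± 0.31 FPKM). GNL3, a nucleolar GTPase gene next to PBRM1, fell from 60.0 ± 1.6 to 44.5 ± 0.66 FPKM (SD, n = 3 per group, limma adjusted p = 0.000602). Around RASSF1, NPRL2, a regulator of amino acid signalling, fell from 4.19 ± 0.074 to 3.27 ± 0.36 FPKM (limma adjusted p = 0.0288), a call kept in 1 of 6 fits that left out a library. On its other side TUSC2 was at 8.31 ± 0.87 and 6.62 ± 0.62 FPKM and did not pass (limma adjusted p = 0.0525). GPX1, the glutathione peroxidase gene that adjoins RHOA, was at 37.6 ± 3.3 and 38.7 ± 5.7 FPKM (limma adjusted p = 0.843), and PTPRG, the phosphatase gene next to FHIT, at 4.26 ± 0.24 and 4.34 ± 0.11 FPKM (limma adjusted p = 0.787).

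In windows of 10 Mb from the telomere, the median log2 difference of tested 3p genes other than the members was -0.28, -0.31, -0.28, -0.28, -0.26 and -0.29 over the 6 windows up to 60 Mb, with 15 to 88 genes each. It was 0.00 for the 17 genes between 60 and 70 Mb, -0.16 for the 11 genes between 70 and 80 Mb and -0.16 for the 6 genes between 80 and 90 Mb. VHL lies in the second of these windows and the cluster in the fifth and the sixth. FHIT begins in the sixth and ends in the seventh, and could not be read. The last 3 windows hold under 20 genes each, and the difference between windows was not tested.

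Among 41 chromosome arms with at least 20 tested genes, 3p had the lowest median. Its share of genes lower in every knockdown library than in any control was 67.5%, members included. The long arm, 3q, came next at a median of -0.13 and a share of 46.7%, and the other 39 arms had medians between -0.05 and 0.06 and shares between 12.5% and 35.2%.

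**Figure D4:**
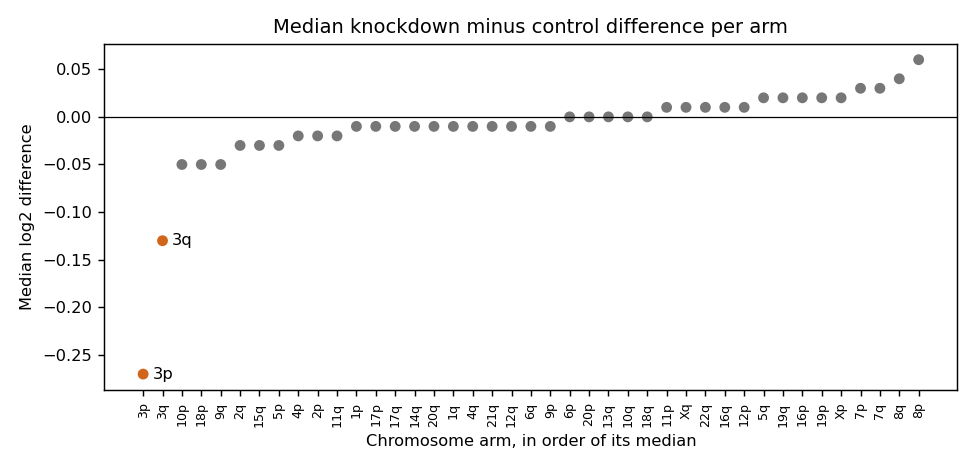
Median log2 difference, knockdown minus control, of the tested genes on each of 41 chromosome arms, in order. The 2 arms of chromosome 3 (orange) lie at -0.27 and -0.13, and all others between -0.05 and 0.06.

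Other tumour suppressor candidates on 3p were lower in many cases, but not throughout. Of 30 listed candidates 18 were tested, and 9 fell and 2 rose (limma, adjusted p under 0.05), with a median log2 difference of -0.24. Among all 318 tested 3p genes other than the members, these 18 included, 56.0% fell and 1.26% rose, with a median of -0.26. Nothing particular to the candidates is therefore read from their counts. The retinoic acid receptor gene RARB fell from 8.96 ± 0.37 to 6.65 ± 0.25 FPKM. The hyaluronidase family gene HYAL2 fell from 4.38 ± 0.05 to 2.93 ± 0.32 FPKM, and XPC, which recognises DNA damage, from 6.90 ± 0.60 to 4.98 ± 0.35 FPKM. Those that rose were TGFBR2, a receptor for TGF-beta (51.5 ± 1.05 to 55.9 ± 1.2 FPKM), and ROBO1, a receptor for Slit ligands (16.8 ± 1.4 to 20.9 ± 1.0 FPKM). The TGFBR2 call was lost in all 6 fits that left out a library, and that of ROBO1 without knockdown replicate 1 or 2. Of the 9 lower calls 6 were kept without control replicate 3 or knockdown replicate 1 or 2, and 7 in the other such fits. The 12 candidates that were not tested had means of at most 0.772 FPKM, and LTF and WNT7A were listed at 0 in every library.

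Genes on 3p that were listed here as oncogenes were lower too. Of 6 listed, 5 were tested and all 5 fell (limma, adjusted p under 0.05), also in each of the 6 fits that left out a library. Among all 318 tested 3p genes other than the members, these 5 included, 56.0% fell. CTNNB1, which encodes beta-catenin, fell from 34.4 ± 1.5 to 28.2 ± 1.0 FPKM, PPARG from 22.9 ± 1.3 to 17.6 ± 0.32 FPKM and the adaptor gene MYD88 from 16.3 ± 1.6 to 11.5 ± 0.23 FPKM (SD, n = 3 per group). The log2 differences of these 3 ran from -0.46 to -0.28, and that of the ligand gene WNT5A was -1.64.

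Genes that work with the members but mostly lie on other chromosomes were higher and lower in like numbers. Of 134 listed partners 119 were tested, and 15 rose and 19 fell (limma, adjusted p under 0.05), where 12.6% and 12.5% of all tested genes did. Their median log2 difference was 0.01. The 4 tested partners on 3p all fell, and of the 113 on chromosomes other than 3, 15 rose and 14 fell. Leaving out control replicate 1, or knockdown replicate 1, 2 or 3, left 12, 12, 9 and 11 lower partners, and leaving out control replicate 2, or knockdown replicate 1 or 3, left 9, 7 and 7 higher ones. Of the 34 called partners 13 passed in all 6 such fits.

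**Figure D5:**
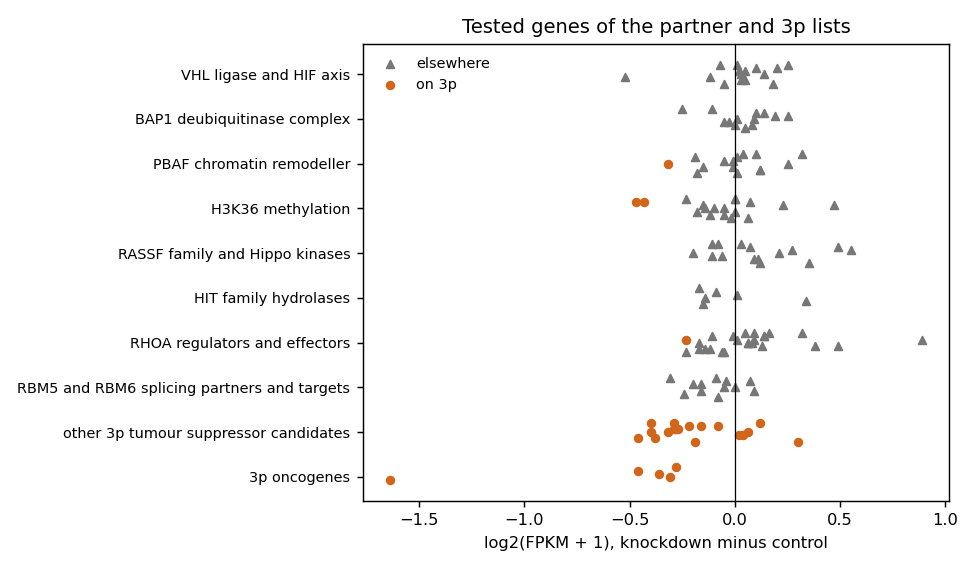
Log2 difference, knockdown minus control, of the tested genes in the 8 partner lists and the 2 lists of other 3p genes, with genes on 3p as orange circles and all others as grey triangles. Partners elsewhere lie on both sides of 0, while the 4 partners on 3p and most genes of the 3p lists lie to its left.

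Among genes of the VHL ligase and the hypoxia-inducible factor axis, 1 of 15 tested members rose and 1 fell. Over all tested genes 12.6% rose and 12.5% fell. EGLN1, a prolyl hydroxylase that lets VHL recognise these factors, fell from 2.96 ± 0.29 to 1.75 ± 0.13 FPKM (limma adjusted p = 0.00481). EPAS1, a hypoxia-inducible factor, rose from 24.3 ± 1.6 to 28.0 ± 0.69 FPKM (limma adjusted p = 0.0322), a call kept in 1 of 6 fits that left out a library. The ligase subunit CUL2 was at 10.8 ± 0.82 and 12 ± 0.21 FPKM and the target gene VEGFA at 4.70 ± 0.34 and 5.81 ± 0.55 FPKM, and neither passed.

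Among partners of BAP1, 2 of 13 tested genes rose and 1 fell, where 12.6% and 12.5% of all tested genes did. OGT, the O-GlcNAc transferase that binds the complex, fell from 73.5 ± 1.3 to 61.9 ± 2.2 FPKM (limma adjusted p = 0.00432). The forkhead factor gene FOXK1 and the ubiquitin ligase gene RNF2 rose by 0.25 and 0.19 on the log2 scale, calls kept in 3 and 0 of the 6 fits that left out a library. The scaffold subunits ASXL1 and ASXL2 had log2 differences of -0.11 and 0.10 and did not pass.

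In the PBAF remodeller around PBRM1, 1 of 15 tested subunits rose and 4 fell, where 12.6% and 12.5% of all tested genes did. The core subunit SMARCC1, itself on 3p, fell from 29.5 ± 0.84 to 23.5 ± 0.65 FPKM (limma adjusted p = 0.00215). The PBAF subunit BRD7, on 16q, fell by 0.18 and ACTL6A, on 3q, by 0.19 on the log2 scale, and SMARCD3 rose from 1.40 ± 0.13 to 2 ± 0.08 FPKM. The last 3 calls were kept in 4, 2 and 2 of the 6 fits that left out a library, and of the 4 lower calls 1 to 3 were kept.

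Among genes listed for methylation of the histone lysine that SETD2 trimethylates, 2 of 18 tested rose and 5 fell. Over all tested genes 12.6% rose and 12.5% fell. The list covers methylation of that lysine in general, and not only the mark that SETD2 makes. Both genes of this list on 3p fell, BRPF1 from 8.94 ± 0.38 to 6.40 ± 0.41 FPKM and the methyltransferase SETMAR from 3.07 ± 0.25 to 1.93 ± 0.18 FPKM. The DNA methyltransferase gene DNMT3B rose from 3.09 ± 0.17 to 4.64 ± 0.07 FPKM and the chromodomain protein gene MORF4L1 from 28.9 ± 0.44 to 34.1 ± 0.42 FPKM. These 4 calls held in all 6 fits that left out a library (limma, adjusted p of at most 0.0238). The other 3 lower calls were less stable, and of the 5 lower calls 2 were kept without knockdown replicate 3 and 3 without control replicate 1 or 3 or knockdown replicate 1 or 2.

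In the RASSF family and the Hippo kinases, 4 of 15 tested genes rose and 0 fell, where 12.6% and 12.5% of all tested genes did. With so few genes no direction is read from these counts. NF2, which acts upstream of these kinases, rose from 5.98 ± 0.07 to 7.87 ± 0.19 FPKM and the kinase gene LATS2 from 1.40 ± 0.09 to 2.51 ± 0.05 FPKM. RASSF4 and RASSF6 rose by 0.49 and 0.27 on the log2 scale, calls kept in 4 and 2 of the 6 fits that left out a library. RASSF4 was under 1 FPKM in the controls and reached the filter through its knockdown values alone. Of the 4 calls 2 were kept without knockdown replicate 1 or 3.

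Of the 6 tested hydrolases of the FHIT family and its relatives, HINT3 rose (6.57 ± 0.81 to 8.55 ± 0.93 FPKM, limma adjusted p = 0.0484, kept in 2 of 6 fits that left out a library) and 0 fell. Over all tested genes 12.6% rose and 12.5% fell. The aprataxin gene APTX was at 3.94 ± 0.17 and 3.41 ± 0.08 FPKM and did not pass.

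Around RHOA, 4 of 25 tested regulators and effectors rose and 3 fell, where 12.6% and 12.5% of all tested genes did. MYL9, a myosin light chain gene, rose from 0.338 ± 0.11 to 1.49 ± 0.24 FPKM and reached the filter through its knockdown values alone. ARHGDIB, an inhibitor of nucleotide exchange on small GTPases of this family, rose from 8.08 ± 0.51 to 10.8 ± 0.84 FPKM (limma adjusted p = 0.00839). The related GTPase gene RHOB fell from 9.14 ± 0.27 to 7.64 ± 0.34 FPKM, a call lost without knockdown replicate 3, and PKN2, an effector kinase, from 14.4 ± 0.25 to 12.7 ± 0.23 FPKM, a call kept in 3 of 6 fits. Of the 4 higher calls 2 were kept without knockdown replicate 1 or 3, and of the 3 lower calls 1 without control replicate 1 or knockdown replicate 2 or 3.

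Of 12 tested partners and splicing targets of RBM5 and RBM6, 0 rose and 5 fell, where 12.6% and 12.5% of all tested genes did. With so few genes no direction is read from these counts. The caspase gene CASP2, whose splicing RBM5 regulates, fell from 12.2 ± 0.64 to 9.68 ± 0.22 FPKM, and the spliceosomal helicase gene SNRNP200 from 47.6 ± 1.0 to 41.4 ± 1.4 FPKM. PRPF19 and U2AF2 fell by 0.24 and 0.16 on the log2 scale, calls kept in 4 and 2 of the 6 fits that left out a library. Of the 5 lower calls 2 were kept without knockdown replicate 1 or 2, and 3 without control replicate 1 or 2. RBM10, the X-linked relative of RBM5, was at 30.4 ± 0.52 and 28.5 ± 1.4 FPKM and did not pass (limma adjusted p = 0.171). Gene-level FPKM does not show splicing.

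Genes on 3p and on other chromosomes followed the measured members closely over the 6 libraries. The 5 protein-coding genes closest to the mean of their standardised levels were CDC45 (Pearson r = 0.999), DNAJC9 (0.998), PRKDC (0.998), GMNN (0.998) and USP19 (0.997), and USP19 alone of these lies on 3p. Of 10248 coding genes compared, 597 had r over 0.95, and 86 of those lie on 3p. The share of 3p among all tested genes was smaller, at 326 of 12191 with members and non-coding genes included. This was fixed in advance, since the members were chosen with the lower values of 3p genes known. Any gene lower in the knockdown follows them, so the larger share is no support. The 6 libraries form 2 groups, so these values are a description, with no test.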

How the data were processed

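RNA-seq values of 3 control and 3 SRSF10 knockdown samples were used. The authors deposited FPKM per gene as 1 table for the series plus separate sample files, identical for all 6 samples. The submitters' processing notes name Trim Galore 0.6.5-1, FastQC 0.11.9 and the build GRCh38. The aligner, counter, annotation and strand setting were not given in the sources used here.

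Genes with at least 1 FPKM in at least 3 libraries were tested (12191, of which 12146 had a position in GENCODE release 29) with limma 3.58.1 in R 4.3.3 on log2(FPKM + 1), which understates changes of low genes, with a trend on mean level, 1 term for group, and Benjamini-Hochberg adjustment with a threshold of 0.05. Intervals are 95% limma intervals. Chromosome arms were divided at approximate centromeres. Library depth was fitted to the steps of low FPKM values, which then came within 0.05 of whole fragments in 86.1% to 86.9% of cases up to 6.5 fragments. Estimates rest on GENCODE exon lengths and cover counting error only. The limma fit was tried on simulated data, with results not reported here. The 9 members and all gene lists were chosen with earlier results of these data known. Genes named are the members, SRSF10, their flanking tested genes, in each list up to 4 genes with the smallest adjusted p and any in the other direction, and the 5 coding genes most like the members; markers, genes given as not passing and genes listed at 0 were chosen after their values were seen. Some genes that this rule names are counted in their lists but not reported here by name. Alternatives were a pseudocount of 0.1, no filter, a filter of 5 FPKM, a replicate block, leaving out each library, median-of-ratios scaling and rescaling without mitochondrially encoded genes. Python 3.11.15, SciPy 1.17.1 and matplotlib 3.10.9 were used.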

Additional observations from a re-analysis of the deposited data

How the results depend on the processing

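The 7 members stayed lower without overlap under every alternative run, with a negative log2 difference in 84 of 84 refits. For most alternatives this was fixed in advance. A pseudocount, a filter, a replicate block or leaving out a library cannot make separated groups overlap or turn the sign. Only median-of-ratios scaling and rescaling without mitochondrially encoded genes change the libraries relative to each other. The size factors of the former were 0.9963 to 1.007, too close to 1 to close even the narrowest gap, that of VHL (10.3 against 9.09 FPKM). For the latter, mitochondrially encoded genes made up a like share of each library, 27.53% to 29.68% of FPKM. Neither is read as a check of the 7 members. RASSF1 ranged from -0.09 to 0.03 when 1 library was left out. RBM5 moved by more than its replicate spread with a pseudocount of 0.1 (-0.495). Differences from neighbour medians moved by more than the spread in 13 of 95 refits, 6 of them with no filter (SETD2 -0.16, RHOA -0.228, RBM6 -0.295, RBM5 -0.353, BAP1 -0.245, PBRM1 -0.171), in which the neighbours include genes near 0 FPKM. With no filter, 1013 genes were called lower, the 3p median was -0.08, and 7 partners were higher and 12 lower; the filter then admits genes whose log2 values hardly move. Leaving out 1 library gave 986 to 1344 genes higher and 975 to 1335 lower, and 7 to 12 partners higher and 9 to 18 lower, with fewer samples in the fit. The replicate numbers did not pair the samples: deviations of same-numbered libraries correlated at 0.0156, 0.057 and -0.0715, and 1 of 3 knockdown libraries was closest to the control of its own number. With the replicate block 1193 genes were higher and 1146 lower, and 10 partners were higher and 10 lower. At 135 to 157 estimated fragments per library for RASSF1 and 3 to 7 for FHIT, depth limits what can be said of both.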
